A study of Mus musculus with 15 samples.

Results

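The 10 genes described here mark the inner lining of blood vessels and were followed in whole quadriceps muscle of dystrophic mice, as 10 of the 14806 features of an all-genes table. They were Cldn5, Pecam1, Cdh5, Kdr, Flt1, Tek, Tie1, Egfl7, Esam and Emcn, chosen by gene symbol as known endothelial genes. Each symbol was found once, and all 10 passed the filter on low values that left 14059 genes for testing. RNA sequencing covered 15 quadriceps libraries from male DBA/2J-mdx mice, a strain that lacks dystrophin, with 5 libraries in each of 3 groups. Injections were intraperitoneal. Vehicle mice were given DMSO 7 times a week, weekly mice prednisone at 1 mg/kg on 1 occasion and DMSO on the other 6, and daily mice prednisone at 1 mg/kg on all 7 occasions. Prednisone is a synthetic glucocorticoid. All groups carry the mdx mutation, so no healthy muscle entered any comparison. Age is given as 6 months in the labels' protocols and as about 7 months at analysis in the sample descriptions.

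Endothelial cells line every vessel, and in skeletal muscle most of them belong to the capillaries that run along the fibres. Vascular endothelial growth factor (VEGF) made by muscle signals through the receptor Kdr (VEGFR2), while Flt1 (VEGFR1) binds the same ligand tightly, signals weakly and also exists as a soluble form, so that it limits the ligand that reaches Kdr. A second receptor system, Tek (Tie2) with its partner Tie1, responds to the angiopoietins and keeps vessels quiescent. Cdh5 (VE-cadherin), Pecam1, Cldn5 (claudin-5) and Esam hold neighbouring endothelial cells together. Egfl7 is a protein that endothelial cells secrete, and Emcn (endomucin) is a mucin-like surface protein of capillary and venous endothelium.

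Levels are given in CPM, which are the reads of a gene scaled to one common library total. Depth was 8215006 to 9040737 reads in vehicle, 2780768 to 11052552 in weekly and 4778253 to 7361026 in daily libraries, and 3 reads corresponded to 0.271 to 1.08 CPM. The fewest reads behind any value of the 10 genes were 12, for Emcn in weekly 4, and none of them was at 0 in any library. A pair of libraries stood apart over all genes. Weekly 4, the shallowest, had 0.567% of its reads in the mitochondrial ribosomal RNA mt-Rnr2, against 6.22% to 9.41% in the other weekly libraries. Daily 3 had 20.5% of its reads in Gm26924, where the other daily libraries had 0.14% to 3.02%. Its factor under trimmed mean of M-values (TMM) scaling, which sets libraries to one level over the bulk of genes, was 0.653 against up to 1.03. Values are therefore given on the deposited scale and, where it matters, with TMM scaling. Vehicle libraries lay close together, where a chi-square of any pair, divided by its degrees of freedom, was 1.495 to 2.01. Sampling noise alone would give 1. Pairs of weekly libraries gave 19.2 to 88.6 and pairs of daily libraries 4.61 to 211. Vehicle libraries thus differed far less, and little beyond the sampling of reads. Each library was kept as a sample, though these values do not show that the vehicle libraries are independent. If they are not, p-values of tests that count each of them as a sample are too small. In whole muscle, fewer endothelial cells and less RNA per endothelial cell cannot be told apart. Nothing in the labels says if each library is a separate animal, so p-values measure only how these samples spread, and that spread may be technical.

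The Kdr and Flt1 starts are shown because the ratio of these receptors differed between groups with no overlap of libraries. Each sequence runs from 250 bases before to 50 bases after the gene's start, on the gene's strand, from RefSeq on GRCm38.p6. Capitals mark GGAA and its reverse complement TTCC, the core letters that ETS transcription factors bind. ETS factors such as Erg and Fli1 are known regulators of endothelial genes.
Kdr, chr5:75978406-75978705, minus strand: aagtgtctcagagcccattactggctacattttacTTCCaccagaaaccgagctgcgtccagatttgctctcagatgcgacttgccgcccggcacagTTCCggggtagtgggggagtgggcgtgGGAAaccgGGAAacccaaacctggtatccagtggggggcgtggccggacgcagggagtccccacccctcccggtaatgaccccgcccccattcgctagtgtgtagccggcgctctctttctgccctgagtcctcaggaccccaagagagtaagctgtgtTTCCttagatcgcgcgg
Flt1, chr5:147725962-147726261, minus strand: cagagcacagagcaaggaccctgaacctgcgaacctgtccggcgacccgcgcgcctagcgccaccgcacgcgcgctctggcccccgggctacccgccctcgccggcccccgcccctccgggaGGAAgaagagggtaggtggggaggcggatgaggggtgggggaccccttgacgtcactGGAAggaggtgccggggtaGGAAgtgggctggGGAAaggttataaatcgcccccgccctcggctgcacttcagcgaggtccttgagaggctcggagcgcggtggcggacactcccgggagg
The Kdr window held 5 such matches and the Flt1 window 4, and 96.0% of 32851 mouse promoter windows of the same length held at least 1. GC content was 60.7% for Kdr and 70.7% for Flt1. A TATA box spelled TATAAA was found in Flt1, starting 31 bases before the gene's start, and not in Kdr, and 13.6% of all windows held it. Neither window held AGAACA, letters that the glucocorticoid receptor binds in pairs, on either strand, which 19.0% of all windows held. Of the 10 genes, 7 had a window, with 9 windows in all because Egfl7 had 3. Cldn5 was the only gene of the 7 with no GGAA on either strand, and Tie1 held 9 matches. AGAACA occurred 1 time in the second Egfl7 window and 1 time in that of Tek. These are matches of letters in a window and say nothing of binding.

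The receptors of VEGF moved apart in the daily group. Kdr, at chromosome 5, 75932827 to 75978458 on the minus strand of GRCm38, measured 44.3, 49.98, 46.7, 49.7 and 55.3 CPM in vehicle libraries 1 to 5. It measured 72.7, 51.1, 79.6, 40.6 and 94.0 CPM in weekly libraries and 37.0, 37.5, 22.3, 38.7 and 41.4 CPM in daily libraries 1 to 5. All 5 daily values lay below all 5 vehicle values, whereas the weekly values spread on both sides of them. Such a separation downward between daily and vehicle occurred in 8.82% of all 14059 genes tested. The log2 change from vehicle to daily was -0.50 (SE 0.20, limma adjusted p = 0.192, Benjamini-Hochberg), which did not pass the threshold of an adjusted p under 0.05. Against weekly, Kdr fell by 0.89 on the log2 scale in the daily group (SE 0.20, limma adjusted p = 0.00878). With TMM scaling daily values were 34.1 to 43.5 CPM and vehicle values 44.8 to 56.3 CPM, again with no overlap. On that scale daily and vehicle did not overlap, in either direction, in 19.7% of 14024 genes tested.

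Flt1, on the same chromosome at 147561604 to 147726011, minus strand, measured 50.6, 48.7, 47.6, 43.7 and 43.2 CPM in vehicle libraries. In weekly libraries it measured 59.7, 47.6, 82.3, 49.6 and 86.3 CPM, and in daily libraries 60.8, 64.1, 43.1, 63.2 and 56.8 CPM. Of the 5 daily values, 4 lay above every vehicle value, and the remaining one, daily 3, lay below them all. The log2 change from vehicle to daily was 0.29 (SE 0.17, limma adjusted p = 0.403). With TMM scaling all 5 daily values, at 59.7 to 65.9 CPM, lay above the vehicle values of 44.0 to 51.2 CPM, a separation seen, in either direction, in 19.7% of 14024 genes tested on that scale. The log2 change was then 0.37 (adjusted p = 0.103), and over all 27 alternatives for Flt1 the adjusted p ran from 0.00197 to 1.

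The ratio of Flt1 to Kdr within a library depends on how libraries are scaled only through the 0.5 CPM added to each value. As a ratio of CPM + 0.5 it was 1.14, 0.974, 1.02, 0.881 and 0.783 in vehicle libraries 1 to 5 and 0.821, 0.932, 1.03, 1.22 and 0.918 in weekly libraries. It was 1.64, 1.70, 1.91, 1.62 and 1.37 in daily libraries, so every daily library, daily 3 included, lay above every library of the other groups. The ratio was 1.72-fold higher in daily than in vehicle libraries, a log2 difference of 0.78 (exact two-sided permutation test, p = 0.00794, adjusted p = 0.0238 over 6 ratio tests, n = 5 and 5), where 0.00794 is the smallest p the design allows. Against weekly it was 1.68-fold higher, a log2 difference of 0.75 (exact permutation p = 0.00794, adjusted p = 0.0238). Weekly and vehicle differed by 0.04 (exact permutation p = 0.778). Both daily comparisons use the same daily libraries. How often ratios of other gene pairs separate the groups in this way was not counted. Of single genes, 19.7% of 14024 separated daily from vehicle with TMM scaling, in either direction. The adjustment covers the 6 ratio tests and not all genes.

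**Figure D1:**
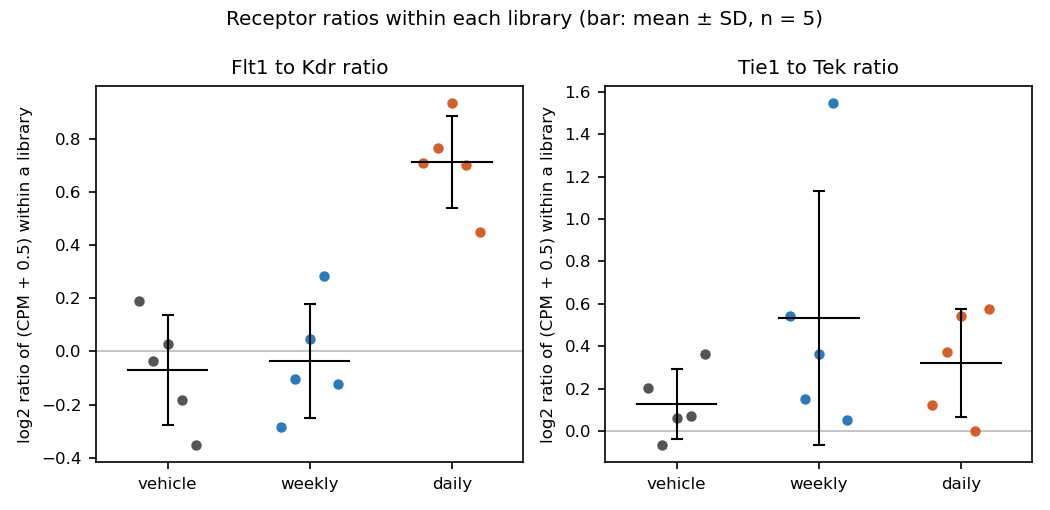
Log2 ratios of Flt1 to Kdr (left) and of Tie1 to Tek (right), each from CPM + 0.5 within a library, with 1 point per library and bars for mean and SD of 5 libraries in each group. All 5 daily points for Flt1 to Kdr lie above the vehicle and weekly points, while the Tie1 to Tek groups overlap, with weekly 4 at a linear ratio of 2.92.

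Tek, the receptor of the angiopoietins, and its partner Tie1 did not pass the test against vehicle. Tek (chromosome 4, 94739289 to 94874976, plus strand) measured 22.2, 25.2, 25.1, 23.6 and 19.6 CPM in vehicle, 24.6, 21.0, 25.3, 16.9 and 34.4 CPM in weekly and 21.5, 19.4, 12.1, 24.9 and 17.3 CPM in daily libraries. The groups overlapped throughout, and its log2 changes were 0.05 from vehicle to weekly (SE 0.19, limma adjusted p = 0.908), which was -0.13 with TMM scaling, and -0.30 from vehicle to daily (SE 0.19, adjusted p = 0.441). Tie1 (chromosome 4, 118471191 to 118490061, minus strand) was narrow in vehicle libraries, at 25.6, 24.0, 26.2, 24.8 and 25.3 CPM. Weekly libraries held 36.04, 23.3, 32.6, 50.3 and 35.7 CPM and daily libraries 23.4, 25.3, 17.8, 24.9 and 26.0 CPM. Of the 5 weekly values, 4 exceeded all vehicle values and weekly 2 lay below them, with a log2 change of 0.45 (SE 0.17, limma adjusted p = 0.0942). Against weekly, Tie1 fell by 0.56 in daily libraries (SE 0.17, limma adjusted p = 0.0389), a call that was lost with TMM scaling (-0.30, adjusted p = 0.205).

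The ratio of Tie1 to Tek was 0.954 to 1.29 in vehicle, 1.04 to 2.92 in weekly and 1.00 to 1.49 in daily libraries. No comparison of it passed. The log2 difference was 0.40 between weekly and vehicle (exact permutation p = 0.159, adjusted p = 0.286) and 0.20 between daily and vehicle (exact permutation p = 0.190, adjusted p = 0.286). Weekly 4 alone, with Tie1 at 50.3 CPM and Tek at 16.9 CPM, gave the value of 2.92.

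Among the junction genes, Cldn5, which seals the tight junctions of vessels, differed most between the regimens. Cldn5 (chromosome 16, 18776847 to 18778262, plus strand) measured 6.82, 4.92, 5.50, 5.53 and 4.52 CPM in vehicle, 10.4, 4.43, 8.05, 8.27 and 8.90 CPM in weekly and 3.88, 3.26, 2.79, 3.77 and 3.19 CPM in daily libraries. Every daily value lay below every vehicle and every weekly value, and 4 of 5 weekly values lay above all vehicle values. Between daily and weekly it fell by 1.10 on the log2 scale (SE 0.20, 95% interval -1.52 to -0.67, limma adjusted p = 0.00247). This call was kept in all 26 alternatives, with adjusted p from 2.74e-05 to 0.0224. Separation downward occurred in 6.98% of all genes tested between daily and weekly libraries and in 8.82% between daily and vehicle. With TMM scaling the daily and weekly Cldn5 groups, at 3.16 to 4.27 and 4.22 to 10.4 CPM, met at their edges. From vehicle to daily the change was -0.62 (SE 0.20, 95% interval -1.04 to -0.19, limma adjusted p = 0.103), not past the threshold over all genes. Cldn5 rested on 18 to 80 reads per library, the fewest of the 10 genes next to Emcn.

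Cdh5, the cadherin of endothelial adherens junctions (chromosome 8, 104101625 to 104144511, plus strand), measured 42.2, 42.7, 45.7, 41.7 and 42.0 CPM in vehicle, 54.6, 45.3, 67.1, 42.4 and 73.8 CPM in weekly and 40.0, 45.5, 30.0, 41.0 and 38.4 CPM in daily libraries. Weekly 1, 3 and 5 lay above all vehicle libraries, and weekly 2 and 4 within their range. The log2 change from vehicle was 0.37 in weekly (SE 0.15, limma adjusted p = 0.145) and -0.15 in daily libraries (SE 0.15, adjusted p = 0.686). An annotated antisense gene, Gm29682, overlaps the start of Cdh5, and the sources used here do not state if the counting used strand. Pecam1, an adhesion molecule of endothelium also carried by platelets and leukocytes (chromosome 11, 106654217 to 106750628, minus strand), measured 43.6, 49.0, 41.9, 47.9 and 47.2 CPM in vehicle and 51.3, 50.4, 72.2, 61.1 and 75.5 CPM in weekly libraries. All 5 weekly values lay above all vehicle values, as in 11.8% of all genes tested, with a log2 change of 0.41 (SE 0.15, limma adjusted p = 0.0955). With TMM scaling the groups overlapped, at 47.9 to 64.4 in weekly and 43.0 to 50.3 CPM in vehicle. The change was then 0.23 (limma adjusted p = 0.13). Daily libraries, at 51.9, 46.7, 30.4, 43.5 and 44.6 CPM, overlapped vehicle. In the comparison of daily with weekly, Cdh5 fell by 0.51 (SE 0.15, limma adjusted p = 0.0411) and Pecam1 by 0.51 (SE 0.15, adjusted p = 0.0401), and neither passed with TMM scaling (adjusted p = 0.293 and 0.16) or without daily 3, where daily minus weekly calls were left for Cldn5 and Kdr.

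Esam, an endothelial and platelet adhesion molecule (chromosome 9, 37528078 to 37538319, plus strand), measured 17.9, 18.7, 21.8, 16.9 and 21.4 CPM in vehicle, 23.4, 20.7, 32.1, 31.6 and 33.8 CPM in weekly and 24.7, 26.8, 16.3, 22.8 and 26.7 CPM in daily libraries. In both prednisone groups 4 of 5 libraries exceeded all vehicle libraries, with weekly 2 and daily 3 as the exceptions. Its log2 change from vehicle was 0.52 in weekly (SE 0.17, limma adjusted p = 0.0578), the smallest adjusted p of the 10 genes in that comparison, and 0.26 in daily libraries (SE 0.17, adjusted p = 0.47).

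Egfl7 and Emcn had changes of opposite sign in daily libraries, neither past the threshold. Egfl7 (chromosome 2, 26580014 to 26593120, plus strand) measured 36.4, 37.2, 32.1, 34.8 and 32.1 CPM in vehicle, 42.2, 32.6, 49.2, 51.8 and 50.4 CPM in weekly and 44.9, 46.5, 25.6, 45.0 and 45.3 CPM in daily libraries. Daily 1, 2, 4 and 5 lay within a narrow band above vehicle and daily 3 lay below it, with a log2 change of 0.23 (SE 0.17, limma adjusted p = 0.525). With TMM scaling all 5 daily values, at 39.1 to 47.6 CPM, were above vehicle at 32.7 to 38.2 CPM, and the change was 0.32 (SE 0.10, adjusted p = 0.0556, with 0.00111 to 1 over 27 alternatives). Emcn (chromosome 3, 137341067 to 137432185, plus strand) measured 8.03, 8.78, 8.36, 9.95 and 10.6 CPM in vehicle, 12.6, 8.32, 11.8, 4.32 and 14.2 CPM in weekly and 7.20, 8.15, 3.56, 7.32 and 6.24 CPM in daily libraries. Of the 5 daily values, 4 lay below every vehicle value, and with TMM scaling all 5 did, at 5.45 to 7.90 against 8.13 to 10.8 CPM. Such a separation, as in Egfl7 and Emcn, occurred on that scale in 19.7% of 14024 genes tested, in either direction. The log2 change of Emcn was -0.50 (SE 0.26, limma adjusted p = 0.333). Between weekly and vehicle it was 0.06, and -0.11 with TMM scaling.

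Egfl7 also hosts miR-126, a microRNA of endothelial cells, whose hairpin lies at chromosome 2, 26591357 to 26591429 on GRCm38.p6 within the Egfl7 gene. Its mature form is shown because the host's level is the only value here that bears on the locus. Capitals mark the seed, bases 2 to 8, and the microRNA itself was not measured.
mmu-miR-126a-3p: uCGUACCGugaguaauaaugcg
Egfl7 also overlaps Gm20532 on the same strand and the 3′ end of Agpat2 on the opposite strand, so reads could have been shared between them in the counting.

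**Figure D2:**
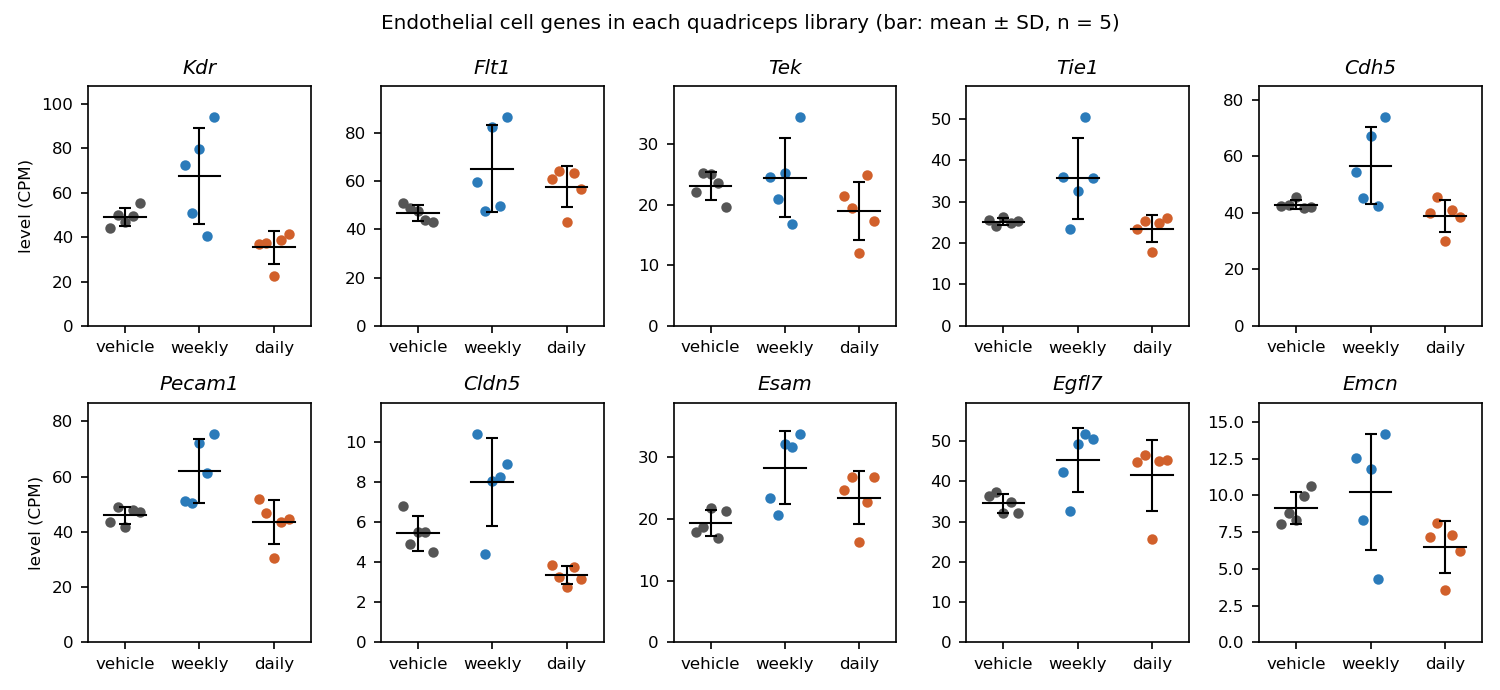
Level of each gene in CPM, on a linear axis from 0, with 1 point per library ordered by replicate and bars for mean and SD of 5 libraries in each group. Vehicle points are tight, weekly points are spread, and 1 daily point, daily 3, is lowest of its group in 10 of 10 panels.

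Per length of annotated exon sequence, Cdh5 was highest in vehicle muscle at 10.2 ± 0.383 CPM per kb (SD, n = 5), followed by Egfl7 at 9.64 ± 0.668 and Pecam1 at 7.38 ± 0.489. Emcn was lowest at 1.69 ± 0.203 CPM per kb. Neighbours in the order Cdh5, Egfl7, Pecam1, Esam, Kdr, Tie1, Tek, Cldn5, Flt1 and Emcn differed by less than the larger SD for Cdh5 and Egfl7, for Pecam1 and Esam, for Kdr, Tie1 and Tek, and for Cldn5 and Flt1. Kdr ranked 5 in vehicle and weekly and 8 in daily muscle, at 5.45 ± 0.456, 7.49 ± 2.39 and 3.92 ± 0.832 CPM per kb. Flt1 ranked 9, 9 and 6 at 3.46 ± 0.239, 4.82 ± 1.35 and 4.27 ± 0.637 CPM per kb. In daily muscle Flt1, Tek and Kdr were neighbours that did not differ beyond their SD.

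The summed level of the 10 genes was above vehicle in 4 of 5 weekly libraries and near it in 4 of 5 daily ones. It was 298 to 309 CPM in vehicle libraries. In weekly libraries 1 to 5 it was 387, 305, 460, 357 and 507 CPM, so weekly 2 was at the vehicle level and weekly 5 furthest above it. Daily libraries 1 to 5 summed to 315, 323, 204, 315 and 306 CPM, close to vehicle except for daily 3. With TMM scaling the mean log2 level of the 10 genes was 4.70 ± 0.02 in vehicle, 4.87 ± 0.28 in weekly and 4.63 ± 0.01 in daily libraries (SD, n = 5). In the weekly comparison with vehicle, limma called 0 of 10 genes, where 6.99% of all genes were called as higher and 1.07% as lower, while 7 of the 10 had an unadjusted p under 0.05, as did 24.5% of all genes. In that comparison edgeR called 0 of the 10, against 11.3% of all genes, and DESeq2 called 1, Esam, against 13.5%. All 10 log2 changes were above 0, with a median of 0.40 against 0.17 for all genes, and with TMM scaling the medians were 0.23 and 0.01. Without weekly 4 and daily 3 limma called 7 of 10 as higher, against 20.3% of all genes, and with TMM scaling as well 3, Cdh5, Kdr and Flt1, against 9.17%.

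In the daily comparison with vehicle, limma again called 0 of 10 genes, against 1.76% of all genes called as higher and 2.13% as lower. Unadjusted p-values were under 0.05 for 2 genes, Cldn5 and Kdr, and for 16.6% of all genes. Both edgeR and DESeq2 called Egfl7 and no other of the 10, where they called 9.47% and 11.4% of all genes. In all, 3 changes were above 0 and the median was -0.13, against -0.08 for all genes. Without weekly 4 and daily 3 and with TMM scaling, 3 genes were called as higher, Flt1, Egfl7 and Esam, against 10.5% of all genes, and 2 as lower, Cldn5 and Kdr, against 9.93%. Between daily and weekly, 0 of 10 were called as higher and 5 as lower, Cldn5, Kdr, Tie1, Pecam1 and Cdh5, against 0.484% and 8.24% of all genes. The median was -0.51 against -0.24. With TMM scaling 2 were called as lower, Cldn5 (-0.85, adjusted p = 0.0119) and Kdr (-0.63, adjusted p = 0.0499), against 2.65% of all genes. The Kdr call was kept in 25 of 26 alternatives, with adjusted p from 1.16e-08 to 0.0595. It was lost in the limma fit of only the groups compared (adjusted p = 0.0595), where the tight vehicle libraries do not enter the shared spread. That fit called 1.66% of all genes, against 8.73% in the main fit. With 1 library left out in turn, Cldn5 and Kdr were called in 15 of 15 fits, Pecam1 in 5, Cdh5 in 4 and Tie1 in 2, and each of the last 3 genes lost its call without any 1 vehicle library, daily 3, 4 or 5, or weekly 3 or 5. Cdh5 and Tie1 also lost it without daily 1, and Tie1 without weekly 1 or 4. Over all alternatives their adjusted p reached 0.16, 0.293 and 0.208.

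**Figure D3:**
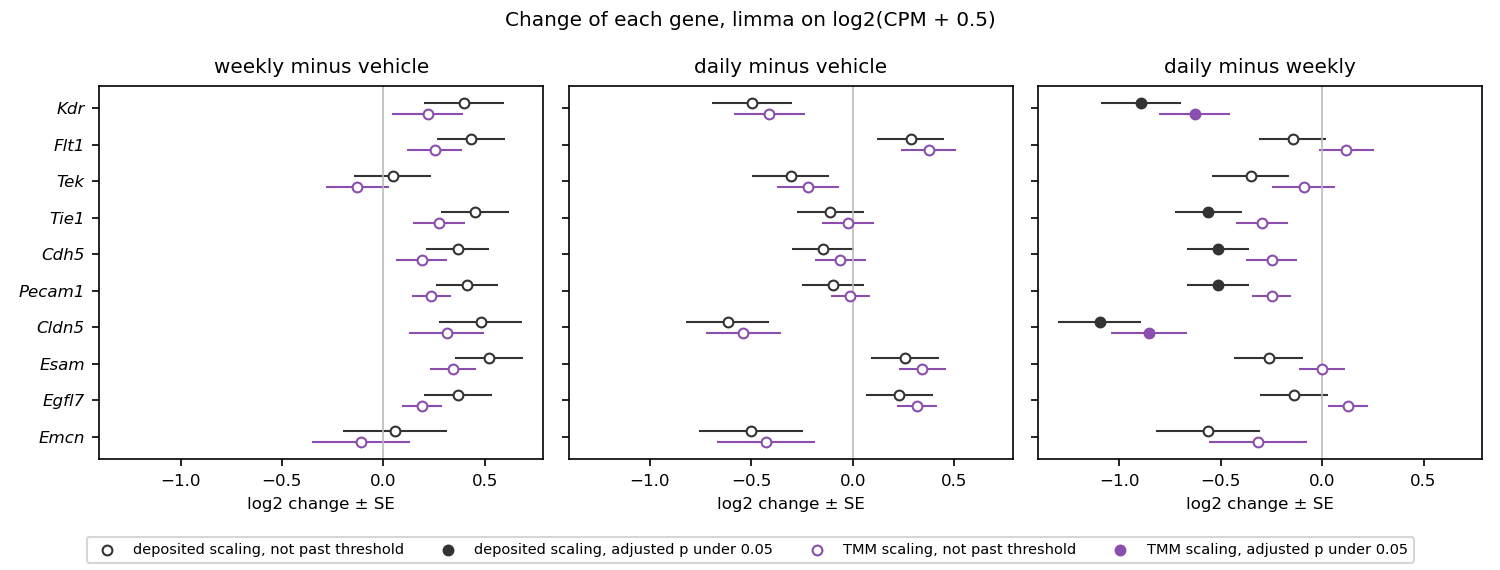
Log2 change and SE of each gene in the 3 comparisons, from limma on log2(CPM + 0.5), with the deposited scaling in black and TMM scaling in purple, and filled points for an adjusted p under 0.05. Filled points appear in daily minus weekly, for 5 genes with the deposited scaling and for Kdr and Cldn5 with both.

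Over the 15 libraries, the rank correlation of log2 levels was above 0 in all 45 pairs of the 10 genes, with a median rho of 0.49 and a range of 0.04 to 0.90, and with TMM scaling in 35 of 45 pairs, with a median of 0.29 and a range of -0.36 to 0.95. The pair with the highest rho was Kdr and Emcn on both scales. These libraries share groups and depth, so the values are a description. The 8 other genes that followed the mean of the 10 most closely were Mipep (rho 0.96), Rnf114, Klf16, Mapk8ip1, Mb, Idh2, Acss1 and Actr1b with the deposited scaling. With TMM scaling they were Aqp7 (rho 0.91), Cables1, Homer2, Gss, Vegfb, 1190002N15Rik, Kctd12b and Ctdspl, and 0 of 8 were shared between the scales.

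Other endothelial genes varied in direction. Of 32 further pan-endothelial genes tested, 6 rose in weekly against vehicle and 0 fell, Nos3, Rasip1, Sox13, Rhoj, Aplnr and Mmrn2. Of all genes tested, 6.99% were called as higher and 1.07% as lower in that comparison. Nos3, the endothelial nitric oxide synthase, measured 6.70 to 8.70 CPM in vehicle and 12.1 to 22.1 CPM in weekly libraries with no overlap, and rose by 1.00 (SE 0.18, limma adjusted p = 0.00127). It was called in 26 of 27 alternatives, the exception being the fit in which vehicle was averaged to 1 sample. Rasip1, needed for vessel lumens, rose by 0.86 (SE 0.18, adjusted p = 0.00436) and Sox13, a transcription factor, by 0.89 (SE 0.19, adjusted p = 0.00611). In daily against vehicle 0 of 32 rose and 1 fell, Clec14a, an endothelial lectin-like receptor, beside 1.76% and 2.13% of all genes. Clec14a measured 9.01 to 10.2 CPM in vehicle and 2.63 to 5.57 CPM in daily libraries and fell by 1.11 (SE 0.18, limma adjusted p = 0.000704). With TMM scaling 6 rose in weekly and 3 fell, Clec14a (-0.49, limma adjusted p = 0.0166), Cd34 (-0.47, adjusted p = 0.00775) and Calcrl. In daily libraries 5 rose and 1 fell on that scale. Of all genes 9.94% and 9.08% were then called, in either direction. Without weekly 4 and daily 3, on the deposited scale, the counts were 15 and 1 in weekly and 8 and 3 in daily. Of all genes 24.0% and 17.4% were then called, in either direction. The same shares apply to the lists below in these settings.

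Of 13 ligands and partners of these receptors, 2 rose in weekly against vehicle, Hif1a, the oxygen-regulated transcription factor (0.67, SE 0.15, limma adjusted p = 0.00762), and Nrp2, a VEGF co-receptor (0.83, SE 0.19, adjusted p = 0.0104), and 0 were called in daily. Of all genes 6.99% were called as higher in weekly, and 1.76% as higher and 2.13% as lower in daily. Without weekly 4 and daily 3 the weekly count was 6, where 20.3% of all genes were called as higher. Vegfa, the main ligand, measured 143 to 162 CPM in vehicle, 160 to 309 in weekly and 100 to 202 CPM in daily libraries, with changes of 0.53 (SE 0.18, adjusted p = 0.0717) and 0.13 (SE 0.18, adjusted p = 0.759). The angiopoietins Angpt1 and Angpt2 changed by -0.30 and 0.26 in weekly and by -0.34 and 0.13 in daily libraries, none past the threshold. Between daily and weekly 4 of the 13 were called as lower, Nrp1, Nrp2, Hif1a and Epas1, and 0 with TMM scaling. Of all genes 8.24% were called as lower there, and 2.65% with TMM scaling.

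By vessel type, 1 of 11 capillary genes rose in weekly, Rgcc (0.82, SE 0.19, limma adjusted p = 0.00863), and 1 fell in daily, the butyrophilin-like Btnl9 (-0.90, SE 0.24, adjusted p = 0.0316). The Btnl9 call was lost without any 1 vehicle library or without daily 1, 2, 3 or 4. For this and the next lists, 6.99% of all genes were called as higher and 1.07% as lower in weekly. In daily the shares were 1.76% and 2.13%. With TMM scaling 2 capillary genes were called as higher in daily, Rgcc and Timp4, beside Btnl9 as lower. Without weekly 4 and daily 3, 5 were called as higher in weekly, and 2 as higher and 3 as lower in daily. Of 9 arterial and Notch genes 2 rose in weekly, Notch4 and Notch1, and 1 in daily, Notch4. The Notch1 call (0.58, SE 0.17, limma adjusted p = 0.0418) was kept in 5 of 15 fits with 1 library left out, and was lost without any 1 vehicle library, daily 1, 4 or 5, or weekly 3 or 5. Notch4, a receptor found mainly in endothelium, lay above vehicle with no overlap in weekly, as did 11.8% of all genes tested. In daily it also lay above vehicle with no overlap. The share of all genes that did so in daily was not counted, and 8.82% lay below vehicle there. It measured 18.1 to 22.5 CPM in vehicle, 25.1 to 53.9 in weekly and 24.8 to 41.2 CPM in daily libraries. It rose by 0.78 in weekly (SE 0.18, limma adjusted p = 0.00771) and by 0.74 in daily libraries (SE 0.18, adjusted p = 0.0155), the latter not past the threshold without daily 2 or without vehicle 3 or 5. Both comparisons share the vehicle libraries. Of 7 venous and adhesion genes limma called 0 in either comparison.

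Among lymphatic markers, Lyve1 and Mmrn1 fell in both prednisone groups. Against vehicle, 1.07% of all genes were called as lower and 6.99% as higher in weekly, and 2.13% and 1.76% in daily. Lyve1, a hyaluronan receptor of lymphatic endothelium and of some macrophages, measured 9.95 to 12.6 CPM in vehicle, 2.40 to 8.99 in weekly and 1.94 to 4.85 CPM in daily libraries. It fell by 1.29 in weekly (SE 0.27, limma adjusted p = 0.00384) and by 1.69 in daily libraries (SE 0.27, adjusted p = 0.000545). Mmrn1, also found in platelets, fell by 1.12 (SE 0.26, adjusted p = 0.011) and 1.35 (SE 0.26, adjusted p = 0.00357). Ccl21a, a chemokine of lymphatic endothelium, measured 2.32 to 3.53 CPM in vehicle, 0.77 to 4.67 in weekly and 0.42 to 0.84 CPM in daily libraries, the last near the level of 3 reads. It passed the filter on low values through vehicle and 3 weekly libraries, with no daily library at 1 CPM, so its difference between daily and vehicle is given here as a description. It has near-identical copies in the mouse genome between which reads can be split. Of the 7 markers, Pdpn, which other cells also carry, rose in weekly by 1.01 (SE 0.20, adjusted p = 0.00303), so that 1 rose and 2 fell in weekly. In daily against vehicle 0 rose, and Lyve1 and Mmrn1 fell. Ccl21a also passed the threshold there as lower, but is not read as a result because of the filter. With TMM scaling Pdpn was also called as higher in daily (0.59, adjusted p = 0.0319), and 3 markers were called as lower in weekly. The summed lymphatic level was 46.6 to 52.3 CPM in vehicle, 31.6 to 47.8 in weekly and 24.6 to 33.6 CPM in daily libraries. Macrophage markers, 7 of 8 listed, had no call against vehicle, but without weekly 4 and daily 3 limma called 2 as lower in weekly and 1 as higher in daily. They had sums of 253 to 273 CPM in vehicle, 118 to 705 in weekly and 158 to 289 CPM in daily libraries, and their part in the Lyve1 result was not tested.

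**Figure D4:**
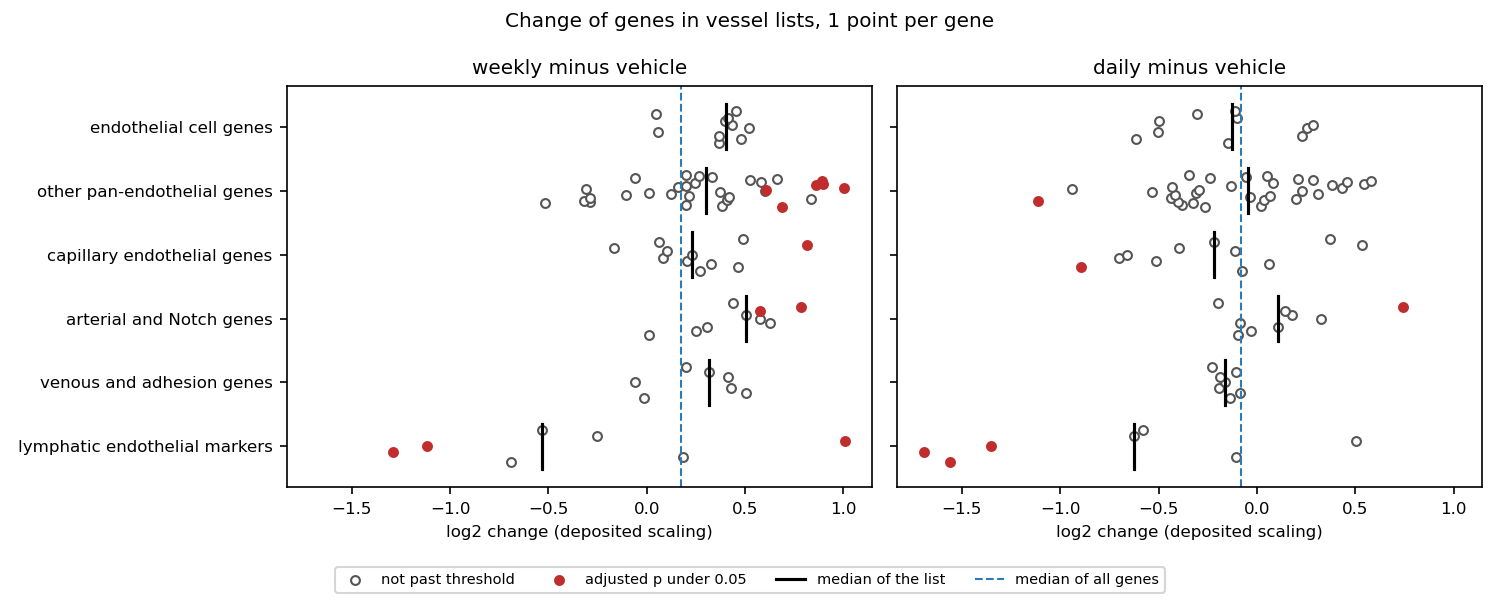
Log2 change of each tested gene in 6 vessel lists, weekly minus vehicle (left) and daily minus vehicle (right), on the deposited scale, with red points for an adjusted p under 0.05, a black line for each list's median and a dashed line for the median of all genes. The medians of the 10 endothelial cell genes are 0.40 and -0.13, and red points on the lymphatic row lie to the left, except Pdpn in weekly. The red points in daily include Ccl21a, which passed the filter on low values only through the other groups.

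Markers of other cells moved in some of the same libraries. The 9 adipocyte markers summed to 668 to 730 CPM in vehicle, to 1315, 896, 1771, 812 and 3087 CPM in weekly libraries 1 to 5 and to 266 to 545 CPM in daily libraries, with 5 called as higher in weekly and 4 as lower in daily against vehicle. In weekly the count was 3 with TMM scaling and 9 without weekly 4 and daily 3. The 3 weekly libraries with the highest adipocyte sums, weekly 5, 3 and 1, were also the 3 with the highest sums of the 10 endothelial genes. Fibroblast markers summed to 18668 CPM in weekly 4 and to 1631 to 2476 CPM in the other weekly libraries, beside 1477 to 1668 CPM in vehicle and 1497 to 2701 CPM in daily. Among 10 smooth muscle and pericyte markers, 3 rose in weekly, Acta2, Myh11 and Cspg4, of which Acta2 and Myh11 did not pass without weekly 3 and Myh11 not without any 1 vehicle library, and 2 fell in daily, the pericyte genes Rgs5 (-0.74, SE 0.15, limma adjusted p = 0.00472) and Kcnj8 (-1.11, SE 0.25, adjusted p = 0.0122). The 10 summed to 687 to 722 CPM in vehicle, 636 to 749 in weekly and 399 to 630 CPM in daily libraries. Platelet markers, 2 of 6 listed genes in the table, summed to 24.5 CPM in weekly 4 and to 5.42 to 10.9 CPM in all other libraries. Muscle fibre markers summed to 247103 to 252366 CPM in vehicle, 204613 to 282085 in weekly and 144514 to 230063 CPM in daily libraries. Of junction partners, 1 of 9 rose in weekly, F11r, and 0 were called in daily against vehicle. Without weekly 4 and daily 3, 4 were called as higher in weekly, and 2 as higher and 1 as lower in daily. None of these markers was at 0 in any library, and their part in the endothelial results was not tested.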

How the data were processed

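RNA was measured in 15 quadriceps libraries, 5 per group. Per the labels' protocols, total RNA entered a stranded total RNA kit and paired-end sequencing, and reads were aligned to mm10 (GRCm38). TopHat2 2.1.0, HTSeq and edgeR are named in the submitters' processing notes. The labels name RPKM, but the deposited values are CPM: all 222090 of 222090 values were whole multiples of 1 read within 0.01 reads, which gave each library's depth. Features without a gene name (534 of 14806) were left out. Genes with at least 1 CPM in at least 5 libraries (14059 of 14272) were tested on log2(CPM + 0.5) in 1 fit over 15 libraries with limma 3.58.1 (empirical Bayes with trend, R 4.3.3), with Benjamini-Hochberg adjustment over all of them. Fold changes on this scale understate those of low genes. Library scaling with TMM (edgeR 4.0.16), edgeR and DESeq2 1.42.0 on the recovered reads, and other settings were alternatives. Ratios were compared by exact permutation of libraries. The limma step was checked on simulated data. Exon lengths and positions came from GENCODE M21 (GRCm38). The 10 genes and all lists were chosen with earlier results of these data known. Named genes were the 10, the 3 with the smallest limma p of each other list in weekly and in daily against vehicle, and Vegfa, Angpt1, Angpt2, Nrp1, Eng, Nos3 and Vwf. Rhoj, Aplnr, Mmrn2, Epas1 and Calcrl, which passed the test in counts of 6 or fewer, were named after their values were seen. Of listed genes, those with no symbol match were not analysed here. Same-numbered libraries of different groups did not deviate together, so numbers were not taken as pairs.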

Additional observations from a re-analysis of the deposited data

Results flagged for a closer look

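Within groups of 5 libraries, 36 sets of values were checked for a library far from the rest, where chance marks about 1 in 20, and 4 were found. Cdh5 measured 45.7 CPM in vehicle 3, against 41.7 to 42.7 CPM in the other vehicle libraries. Kdr measured 22.3 CPM in daily 3, against 37.0 to 41.4 CPM in the other daily libraries. Egfl7 measured 25.6 CPM in daily 3, against 44.9 to 46.5 CPM in the others. The Tie1 to Tek ratio was 2.92 in weekly 4, against 1.04 to 1.46 in the other weekly libraries. With TMM scaling daily 3 held 34.1 CPM of Kdr and 39.1 CPM of Egfl7, the lowest values of its group for both.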

How the results depend on the processing

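Limits: the count of the 10 genes past the threshold depended on the setting, as did the share of all genes called, given in parentheses. In weekly minus vehicle (0 called) the count was 8 with array weights (40.5%), 1 with DESeq2 (13.5%), 1 with only the groups compared (10.1%), 7 without weekly 4 and daily 3 (24.0%), 3 so with TMM scaling (17.3%), and 0 to 4 with 1 library left out (4 without weekly 2 or daily 3). In daily minus vehicle (0 called) it was 5 with array weights (25.1%), 1 with DESeq2 (11.4%), 1 with edgeR (9.47%), 3 with only the groups compared (12.3%), 3 without weekly 4 and daily 3 (17.4%), 5 so with TMM scaling (20.4%), and 0 to 2 with 1 library left out (2 without weekly 4, Cldn5 and Kdr). In daily minus weekly (5 called) it was 2 with DESeq2 (7.45%), edgeR (5.31%) or TMM scaling (4.72%), 1 with only the groups compared (1.66%), and 2 to 5 with 1 library left out. With a replicate block, which the data do not support as a pairing (same-number correlations of -0.03 to 0.15), it was 2 (7.01%). The block gave 0 in weekly minus vehicle (7.80%) and 0 in daily minus vehicle (3.51%). Hardly any gene passed in the fit with vehicle averaged to 1 sample, which has no spread within vehicle, so its counts are not read. With TMM scaling the median of the 10 moved from -0.51 to -0.25 in daily minus weekly, from -0.13 to -0.04 in daily minus vehicle and from 0.40 to 0.23 in weekly minus vehicle. The cause was not tested.

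The Flt1 to Kdr difference between daily and weekly was 0.77 without weekly 4 and daily 3 (exact permutation, adjusted p = 0.0857). Every daily ratio kept there still lay above every weekly ratio. With 1 library fewer in each group the smallest p of the exact test is higher, and this separation reached it. The loss of the call thus follows from the group size. With 1 library left out, the difference was 0.69 to 0.83 between daily and weekly and 0.71 to 0.85 between daily and vehicle. Between weekly and vehicle it ranged from -0.044 to 0.10 with 1 library left out and was -0.044 without weekly 4 and daily 3. Tie1 to Tek in daily minus weekly was -0.33 to 0.045 with 1 library left out (0.045 without weekly 4).

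Some changes of single genes turned direction. Egfl7 in daily minus weekly was 0.13 with DESeq2, edgeR or TMM scaling, 0.078 without weekly 4 and daily 3, 0.19 so with TMM scaling, and -0.25 to 0.025 with 1 library left out (0.025 without daily 3). Flt1 there was 0.069 with DESeq2, 0.071 with edgeR and 0.12 with TMM scaling, and Esam 0.015 without weekly 4 and daily 3 with TMM scaling. Emcn in weekly minus vehicle was -0.11 with TMM scaling and -0.080 to 0.32 with 1 library left out, among them -0.037 and -0.015 without weekly 1 and 3. Tek there was -0.081 with DESeq2, -0.075 with edgeR, -0.13 with TMM scaling and -0.084 to 0.17 with 1 library left out, among them -0.010 without vehicle 5. Pecam1 in daily minus vehicle was 0.033 with array weights, 0.023 without weekly 4 and daily 3, and -0.17 to 0.023 with 1 library left out (0.023 without daily 3).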
